A study of Arabidopsis thaliana with 103 samples.

Results

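The genes described here are 16 annotated nuclear genes, of 33323 with values in the files. Their RNA was higher in the *morchex* seedlings than in Col-0 and in the MOM1 complex mutants *phd1-2*, *phd1-4* and *mom2-2*. In the *pial1/2* double mutant it stayed below a limit set from the Col-0 mean, which still allows a level above Col-0. *morchex* carries T-DNA insertions in 6 of the *MORC* genes (the alleles *morc1-2*, *morc2-1*, *morc4-1*, *morc5-1*, *morc6-3* and *morc7-1*). The gene *AT2G17690* was left out by the rule before any condition was applied. A member had a mean in *morchex* of at least 0.5 CPM (expected counts per 1000000 counts of the library). This mean was also at least 2 times the sum of 0.05 CPM and the mean of each of the 4 compared groups. Every *morchex* library had to be above every library of these groups. The *pial1/2* mean (labelled pial1pial2double) had to be below 2 times the sum of 0.05 CPM and the Col-0 mean. These conditions used the *morchex*, Col-0 control, *phd1-2*, *phd1-4*, *mom2-2* and *pial1/2* libraries, so the members were chosen by their CPM in those 18 libraries, and their values there are given as a description, with no test.

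RNA-seq was done on whole 12-day-old seedlings of 14 groups with 3 libraries each, and ChIP-seq peaks came from unopened flower buds. All plants were Col-0 in ecotype and grew under the same long-day light regime. Besides the groups above, RNA was measured in the single T-DNA mutants *morc6-3*, *aipp3-1*, *aipp3-2*, *mom2-1*, *pial1-2* and *pial2-1*, and in *nrpe1-11*, a mutant in which Pol V lacks its main subunit, and which has a Col-0 group of its own (Col-0 for nrpe1-11). *phd1-2* and *phd1-4* are CRISPR/Cas9 alleles with a single T inserted in exon 2 and exon 3 of *PHD1*, made with Cas9 driven by the *YAO* promoter. *pial1/2* combines insertions in *PIAL1* and *PIAL2*, and each mutant line carries 1 allele of each gene, so a change belongs to that line. The study's reporting summary says that its replicates were done independently, but the labels do not say what each library was made from, so p-values measure the spread between these libraries. ChIP-seq used flower buds, and no plant age is given for them. There were MORC6-Myc plants (2 replicates) and further lines with MORC6-Myc in the Col-0 (2 lines), *morc6* (3 lines) and *pial1/2* (3 lines) backgrounds. There were also plants with PIAL2-Myc, AIPP3-FLAG, PHD1-FLAG or PHD3 with either tag (2 libraries each). Col-0 plants with the same antibody were the controls. The study's methods give these transgenes as genomic fragments with the gene's own promoter region and a tag at the C-terminus.

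The RNA libraries fell into sets by clock genes, which the labels do not explain. *PRR9*, a clock gene with a daily rhythm, had group means of 6.25 to 8.95 CPM in the Col-0 control, *pial1/2*, *mom2-1*, *pial1-2* and *pial2-1*, of 29.5 to 34.9 CPM in *phd1-2*, *phd1-4*, *mom2-2*, *morchex*, *morc6-3*, *aipp3-1* and *aipp3-2*, and of 62.1 and 68.9 CPM in *nrpe1-11* and its Col-0. The Col-0 and *pial1/2* conditions of the rule, and every comparison of *morc6-3* or *aipp3* with the Col-0 control, therefore cross these sets, and what sets them apart cannot be told apart from the genotypes there. In bulk seedlings, more RNA per cell and more cells that express a gene cannot be told apart.

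MORC proteins are GHKL-type ATPases that help to compact chromatin and keep transposons and related loci silent. They act partly at sites of RNA-directed DNA methylation (RdDM), where Pol V transcripts guide DNA methyltransferases. The MOM1 complex, with PIAL1, PIAL2, MOM2, PHD1 and AIPP3, silences a partly shared set of loci.

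The 16 genes were of 2 kinds by annotation. There were 8 protein-coding genes, and 8 were pseudogenes or RNAs without a known protein (5 pseudogenes, 2 annotated as ncRNA and 1 as lncRNA). Starting from 20353 genes with at least 0.5 CPM in *morchex*, without *AT2G17690*, 127 met the fold condition, 55 of them had no overlapping library, and 39 of these were left out because *pial1/2* reached the limit. *AT3G42850* (2.28 times), *AHP4* (2.36) and *SADHU3-2* (2.93) lay just inside the fold limit, and *AT3G28840* (1.86), *AT2G12190* (1.98) and *MORC4* itself (*AT5G50780*, 1.99) just outside it. On the *pial1/2* side, *AT1G26558* (1.94), *AT1G25430* (1.92) and *AT4G01980* (1.90) were just under the limit of 2.

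The words "in *morchex* only" did not hold outside the libraries that the rule used. Within them, the *pial1/2* mean was above Col-0 for some members and below it for others. It was 0.142 against 0.0249 CPM for *AT4G01980*, 0.759 against 0.342 for *AT1G26558* and 2.07 against 1.03 for *AT1G25430*. For *HAI2* it was 0.351 against 0.549 CPM. Over the 14 group means, *morchex* was the highest for 12 of the 16 genes and the second highest for 4, and *morc6-3* was first or second for 10. In 5 genes one of the *aipp3* alleles was first or second. In the pseudogenes and RNAs replicate 3 of *morchex* was 0.454 to 1.75 times the mean of the other libraries, whereas 6 of the protein-coding genes were carried by 1 library in each of several mutants.

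**Figure D1:**
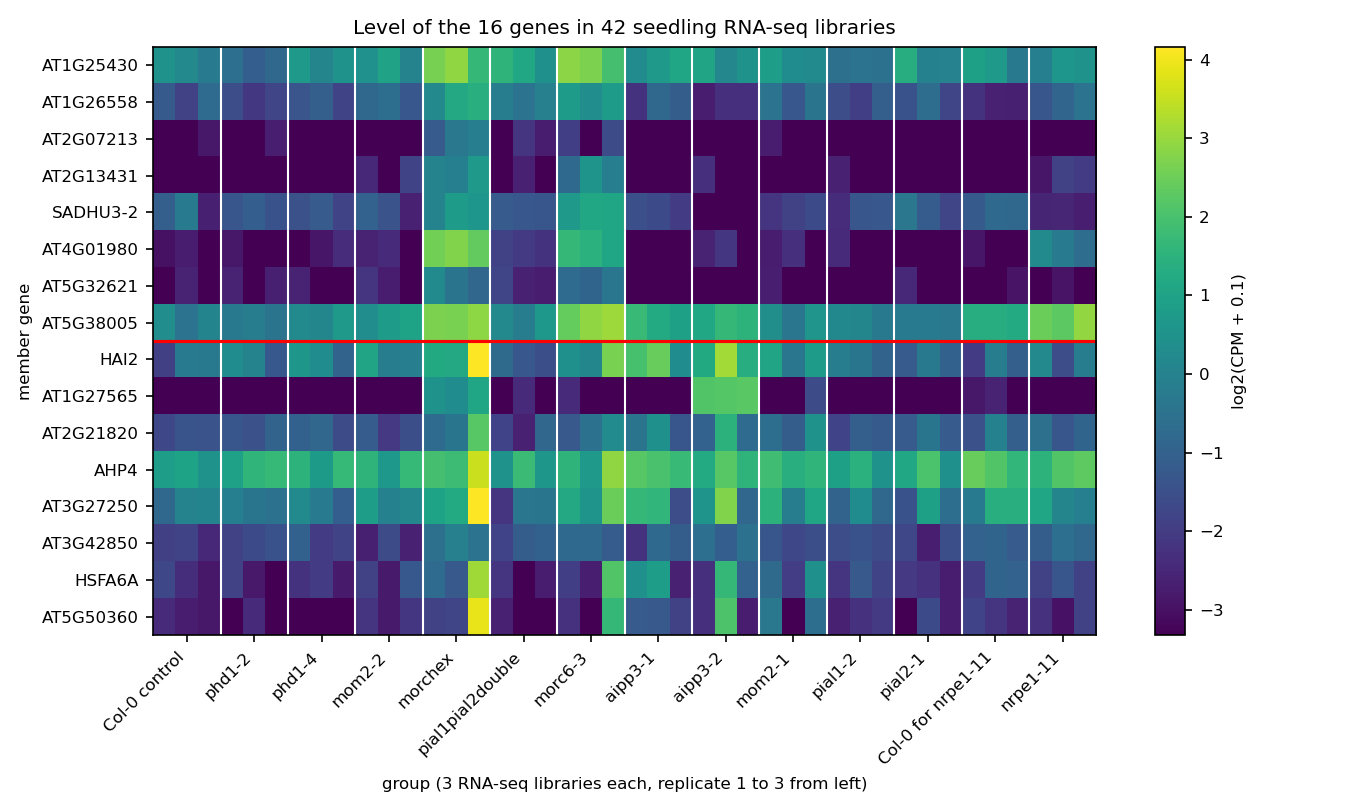
Level of the 16 genes, as log2(CPM + 0.1), in each of 42 RNA-seq libraries, with 3 libraries per group in replicate order and the 8 pseudogenes and non-coding RNAs above the red line. The upper rows are bright in both *morchex* and *morc6-3*, and in the lower rows *morchex* replicate 3, *morc6-3* replicate 3 and *aipp3-2* replicate 2 stand out.

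The sequences at which MORC6-Myc was found beside 3 of the pseudogenes are shown first, because all 8 pseudogenes and RNAs had such a peak. Each run is 201 bases around the summit of the strongest MORC6-Myc replicate 1 peak within 1 kb, with the CG dinucleotides, the sites of CG methylation, in capitals.

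AT1G25430, TAIR10.1 chr1:8933063-8933263, plus strand: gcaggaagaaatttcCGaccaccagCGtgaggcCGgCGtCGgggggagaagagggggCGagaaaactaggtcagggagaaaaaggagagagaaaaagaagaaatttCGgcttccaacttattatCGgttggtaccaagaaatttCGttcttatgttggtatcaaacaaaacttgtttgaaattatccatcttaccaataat
SADHU3-2, TAIR10.1 chr3:14750547-14750747, plus strand: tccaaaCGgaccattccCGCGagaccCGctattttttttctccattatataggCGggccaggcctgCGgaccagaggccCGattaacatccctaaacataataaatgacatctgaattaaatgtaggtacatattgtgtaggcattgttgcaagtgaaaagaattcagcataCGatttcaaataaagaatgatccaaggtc
AT4G01980, TAIR10.1 chr4:862909-863109, plus strand: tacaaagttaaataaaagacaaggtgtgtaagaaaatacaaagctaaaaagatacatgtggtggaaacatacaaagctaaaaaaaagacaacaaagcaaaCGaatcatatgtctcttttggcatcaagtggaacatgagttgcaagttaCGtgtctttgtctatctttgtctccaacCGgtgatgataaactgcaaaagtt

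The windows of the 10 members with a peak in both replicates held 1 to 12 CG dinucleotides, with a median of 4, and the 3 printed held 9, 8 and 3. The median was also 4 over the 4200 reproducible MORC6-Myc peaks, of which 93.0% held at least 1. The GC content of the 3 was 43.3%, 41.8% and 33.8%, and its median was 37.3% over the 10 and 33.8% over these peaks.

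The second set is the 250 bases before the annotated start of 3 of the protein-coding genes that were high in the same single libraries. The capitals mark ACGTG on either strand (CACGT when read on the other strand), the core of the abscisic acid response element bound by bZIP factors. Matches may overlap.

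HAI2, TAIR10.1 chr1:2282829-2283078, minus strand: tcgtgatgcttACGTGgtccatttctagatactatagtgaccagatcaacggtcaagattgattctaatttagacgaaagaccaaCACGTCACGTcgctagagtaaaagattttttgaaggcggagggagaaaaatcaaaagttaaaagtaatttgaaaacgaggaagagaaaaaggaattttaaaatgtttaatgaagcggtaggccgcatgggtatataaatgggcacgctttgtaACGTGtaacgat
AT5G50360, TAIR10.1 chr5:20506355-20506604, minus strand: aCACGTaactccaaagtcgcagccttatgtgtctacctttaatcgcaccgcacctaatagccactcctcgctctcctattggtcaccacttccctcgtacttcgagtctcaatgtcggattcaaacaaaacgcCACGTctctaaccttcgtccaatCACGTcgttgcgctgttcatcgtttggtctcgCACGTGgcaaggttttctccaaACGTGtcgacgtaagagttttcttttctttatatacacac
AT3G27250, TAIR10.1 chr3:10060759-10061008, plus strand: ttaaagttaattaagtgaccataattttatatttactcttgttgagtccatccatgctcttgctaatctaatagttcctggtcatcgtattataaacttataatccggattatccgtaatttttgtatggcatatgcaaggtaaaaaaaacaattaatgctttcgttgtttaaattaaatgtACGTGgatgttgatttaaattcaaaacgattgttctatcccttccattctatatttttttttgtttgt

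*HAI2* had 4 matches, *AT5G50360* had 6 and *AT3G27250* had 1. Of the 8 protein-coding members 5 held at least 1 match and 2 held 2 or more, against 23.1% and 8.96% of 26710 nuclear protein-coding genes with a window of this length. *AHP4* and *AT2G21820* had 1 match each, and *HSFA6A* had none. Of the 8 pseudogenes and RNAs 1, *AT5G38005*, had a match. A match is a run of letters and was not tested for binding.

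*AT4G01980*, a pseudogene on chromosome 4 at 863351 to 864259, had the clearest difference of the set. It was at 5.80, 6.58 and 5.08 CPM in *morchex*, and at 0.0265, 0.0481 and 0 in Col-0, where it had 1.63 expected counts in all 3 libraries together. In *morc6-3* it was at 3.03, 2.66 and 2.02 CPM, and in *nrpe1-11* at 1.10, 0.757 and 0.534. The libraries of each of these mutants lay above every library of both Col-0 groups. In *pial1/2* it was at 0.171, 0.141 and 0.115 CPM, also above all 3 Col-0 control libraries. The *pial1/2* mean was 1.90 times the sum of 0.05 CPM and the Col-0 mean. A copy 98.8% identical over 910 bp lies on chromosome 2 at 9653623 to 9654532 (*AT2G22710*), and its level was 0.715 CPM in *morchex*, 0.554 in *morc6-3* and 0.0222 in Col-0. Reads that match both copies are divided between them by the counting model, so the level of each is uncertain.

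*AT1G25430*, an annotated pseudogene on chromosome 1 (8927732 to 8933058), and *AT5G38005*, a non-coding RNA on chromosome 5 (15155067 to 15156088), had overlapping levels in the single mutant *morc6-3* and in *morchex*. *AT1G25430* had 6.06, 7.53 and 3.08 CPM in *morchex*, 7.17, 6.38 and 3.80 in *morc6-3* and 1.304, 1.06 and 0.729 in Col-0. *AT5G38005* had 6.29, 6.25 and 7.29 CPM in *morchex*, 5.14, 7.46 and 8.25 in *morc6-3* and 1.18, 0.625 and 0.946 in Col-0. For both genes the libraries of *morchex* and *morc6-3* overlapped each other and none overlapped Col-0. Per length, *AT5G38005* was the most abundant of the 16 genes in *morchex*, with 18.2 ± 1.69 TPM (SD, n = 3), a scale that divides counts by transcript length and then by the library's sum. *AT1G25430* had 1.13 ± 0.458 TPM over its longer model.

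*SADHU3-2* (*AT3G42658*, chromosome 3, 14749400 to 14750294) belongs to the Sadhu family of short retrotransposons, whose copies are known to be silenced by DNA methylation. It was at 0.914, 1.64 and 1.41 CPM in *morchex* and at 1.53, 2.11 and 2.06 in *morc6-3*. In Col-0 it was at 0.379, 0.769 and 0.0591 CPM, a wide spread that still stayed below every library of the 2 mutants. It was at 0 in all 3 *aipp3-2* libraries and at 0.0723, 0.0747 and 0.0542 in *nrpe1-11*, against 0.335, 0.488 and 0.473 in its Col-0.

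*AT1G26558*, an ncRNA on chromosome 1, was at 1.04, 2.17 and 2.49 CPM in *morchex*, 1.67, 1.17 and 1.65 in *morc6-3* and 0.337, 0.178 and 0.512 in Col-0. All 3 libraries of each mutant were above all 3 of Col-0. The *pial1/2* libraries, at 0.804, 0.621 and 0.853 CPM, were also above all 3 of Col-0. Of its length 60.8% matched other places in the genome at 95% identity or more. *AT2G13431*, a pseudogene on chromosome 2, was at 0.926, 0.834 and 1.54 CPM in *morchex* and at 0.492, 1.35 and 0.825 in *morc6-3*, with 0 counts in Col-0, which makes *morchex* at least 26.3-fold higher against a floor of 3 counts over the group. It overlaps *AT2G13430* on the other strand, and no source states that the counting used strand. The 2 genes' reads can therefore not be told apart.

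The other pseudogene and the lncRNA were rare in every library. *AT5G32621*, a pseudogene in a gene-poor stretch of chromosome 5, was at 1.08, 0.640 and 0.448 CPM in *morchex* and 0.510, 0.435 and 0.662 in *morc6-3*, with 1.42 expected counts in Col-0. A stretch of 1567 bp in *AT3G15310* on chromosome 3 was 97.3% identical to it, and that copy was at 7.29 CPM in *morchex*, 6.07 in *morc6-3* and 0.123 in Col-0. Matches of at least 95% identity covered 66.1% of *AT5G32621*. Some or all of its counts may therefore be reads of the more abundant copy, so its own level is uncertain. The lncRNA *AT2G07213* was at 0.343, 0.695 and 0.822 CPM in *morchex*, from 32.6 expected counts in all, and at 0.164, 0 and 0.236 in *morc6-3*. It lies across *AT2G07215* on the other strand.

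Among the protein-coding genes, *HAI2* (*AT1G07430*) encodes a clade A protein phosphatase 2C of the abscisic acid pathway, which acts against abscisic acid signalling and is itself induced by the hormone. It was at 2.23, 2.17 and 17.8 CPM in *morchex*, and at 0.168, 0.769 and 0.709 in Col-0. In *morc6-3* it was at 1.26, 0.973 and 6.19 CPM, and in *aipp3-2* at 2.23, 8.64 and 2.43. Replicate 3 of *morchex* and of *morc6-3* and replicate 2 of *aipp3-2* were thus each well above the other libraries of their group.

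*AT5G50360*, a von Willebrand factor A domain protein, showed the same libraries in the most extreme form. It was at 0.171, 0.197 and 14.8 CPM in *morchex*, 0.109, 0 and 3.06 in *morc6-3* and 0.104, 4.13 and 0.0507 in *aipp3-2*. In Col-0 it was at 0.0841, 0.0481 and 0.0394. The 2 lower *morchex* libraries held 3 counts each. *AT5G50360* lies 145.0 kb from *MORC4*, which carries an insertion in *morchex*.

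*HSFA6A*, a class A heat shock transcription factor, was at 0.514, 0.329 and 8.42 CPM in *morchex*, 0.164, 0.0541 and 4.30 in *morc6-3* and 0.104, 3.06 and 0.406 in *aipp3-2*, against 0.210, 0.0961 and 0.0394 in Col-0. *AT2G21820*, annotated as a seed maturation protein, was at 0.514, 0.657 and 4.52 CPM in *morchex*. *AT3G27250*, an uncharacterized protein, was at 1.94, 2.30 and 17.57 CPM in *morchex*, 2.19, 1.35 and 5.48 in *morc6-3* and 1.35, 6.65 and 0.457 in *aipp3-2*. The same replicate of each mutant was the highest for each of these genes.

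*AHP4*, a histidine phosphotransfer protein of the family that relays cytokinin signals, was at 3.77, 3.42 and 11.8 CPM in *morchex*, 2.79, 1.57 and 7.42 in *morc6-3* and 1.73, 1.92 and 1.34 in Col-0. The Col-0 libraries for *nrpe1-11*, which the rule did not use, were at 5.21, 4.27 and 3.03 CPM and so overlapped the 2 lower *morchex* libraries. Of the 5 other *AHP* genes, looked at after the members' values were seen, 0 were called by edgeR in *morchex* or in *morc6-3* (0 at an unadjusted p under 0.05, 0 by DESeq2). Their summed level was 105 to 112 CPM in *morchex* and 109 to 112 CPM in Col-0.

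These 6 genes were grouped because *morchex* replicate 3 was over 2 times both other *morchex* libraries, and it was 3.27 to 80.5 times their mean. In *morc6-3* replicate 3 and in *aipp3-2* replicate 2, which the grouping did not use, the level was the highest of the group in 6 of 6. It was so in 3 and 3 of the 10 other members. The share of all genes highest in these libraries was not counted. Over all nuclear genes with a mean of at least 0.5 CPM in *morchex*, their median ratio to the other libraries of the group was 0.985 and 0.942. Of all nuclear genes with a mean of at least 0.5 CPM in *morchex*, 1.28% had *morchex* replicate 3 over 2 times both others. The rule chose members by their *morchex* mean, which 1 high library can raise, so this share is a description. In the other 10 members replicate 3 was 0.454 to 1.75 times the mean of the other libraries. Without *morchex* replicate 3 the rule found 13 genes, of which 10 were among the 16, and the 6 genes above were the ones lost.

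The sum of abscisic acid response genes was high in the same libraries. A list of 13 such genes, put together after the values of the members were seen and including none of them, summed to 555, 512 and 2609 CPM in *morchex* replicates 1, 2 and 3 and to between 410 and 477 CPM in Col-0. All 13 were over 2 times both others in *morchex* replicate 3. Of them 11 had their highest value of the 42 libraries there, beside 3.27% of all nuclear genes with a mean of at least 0.5 CPM in *morchex*. The list also summed to 1113 CPM in *morc6-3* replicate 3 and 1309 CPM in *aipp3-2* replicate 2. A sum is led by the abundant genes. The median gene of the list was 3.62 times the mean of the other libraries of its group in *morchex* replicate 3. This ratio was 1.41 in *morc6-3* replicate 3 and 2.26 in *aipp3-2* replicate 2. *RD29B*, a classical target of abscisic acid signalling, was at 1.60, 0.197 and 159 CPM in *morchex*, and *RAB18*, a dehydrin, at 46.6, 25.8 and 903. As groups of 3 libraries, 0 of the 12 genes tested were called by edgeR in *morchex* (9 higher at an unadjusted p under 0.05, 0 called by DESeq2).

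**Figure D2:**
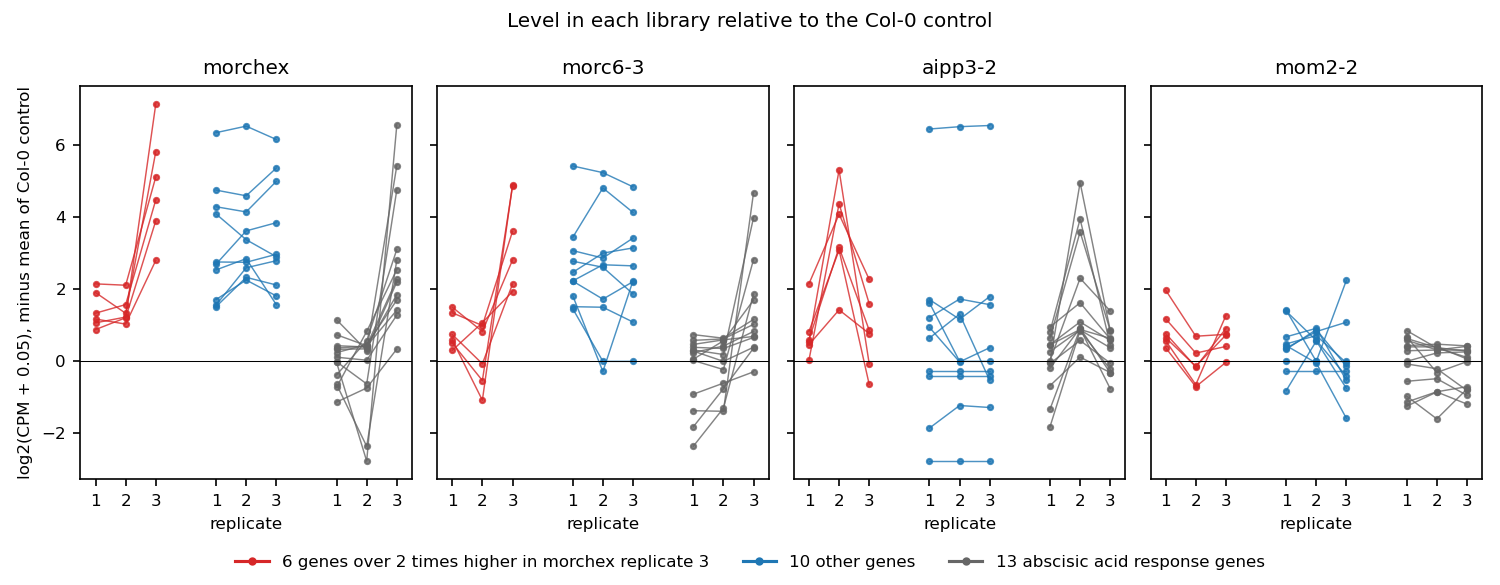
Level of each gene in each library as log2(CPM + 0.05) minus its mean in the Col-0 control, with the 3 replicates of a group joined by a line. The 6 genes in red are highest in replicate 3 of *morchex* and *morc6-3* and in replicate 2 of *aipp3-2*, the 13 abscisic acid response genes in grey are over 2 times both other *morchex* libraries in *morchex* replicate 3, and the 10 other members in blue have no *morchex* replicate 3 over 2 times both others.

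Markers of other tissues were looked at beside this. Seed storage markers summed to at most 0.257 CPM and pollen markers to at most 0.394 CPM in any *morchex* library, and 4 of the 7 seed markers were over 2 times both others in replicate 3 at that level. Green tissue, root and flower organ markers had no gene with replicate 3 over 2 times both others, and none of their 8 tested genes was called by edgeR in *morchex* (2 higher at an unadjusted p under 0.05, 0 called by DESeq2). Of 3 heat shock genes, a list also put together after the members' values were seen, *HSFA2* was called higher in both *morchex* and *morc6-3* by edgeR and 0 by DESeq2, with 1 gene over 2 times both others in *morchex* replicate 3 and the list at 10.7, 10.7 and 16.0 CPM in the 3 *morchex* libraries. The part of the abscisic acid response in the levels of the 6 genes was not tested.

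The last 2 protein-coding members were even across the *morchex* libraries. *AT3G42850*, of the mevalonate/galactokinase family, was at 0.571, 0.855 and 0.616 CPM in *morchex* and at 0.168, 0.192 and 0.0788 in Col-0. The 6 libraries of *nrpe1-11* and its Col-0 were between the 2, at 0.347 to 0.568 CPM. *AT1G27565*, an uncharacterized gene on chromosome 1 (9574550 to 9575189), was at 1.29, 1.16 and 2.00 CPM in *morchex* and at 0 in all 12 libraries of the compared groups.

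*AT1G27565* was higher still in *aipp3-2*, at 4.30, 4.499 and 4.60 CPM, which is at least 104.2-fold above Col-0 (floor of 3 counts over the group). The other *AIPP3* allele, *aipp3-1*, had 0 counts in all 3 libraries. The difference between the alleles had an adjusted p of 0.00567 in edgeR (the gene was 1 of 12 called higher of 22082, 0.0543%), and *aipp3-2* was at least 78.3-fold higher. The adjusted p was 0.0582 without *aipp3-2* replicate 1, 0.0609 without its replicate 2, 0.00945 to 0.0475 without any other library and 1.96e-09 in DESeq2. A copy 98.4% identical over the whole gene (*AT1G52905*, chromosome 1, 19706070 to 19706708) was at 6.83 CPM in Col-0, 7.46 in *morchex* and 9.08 in *aipp3-2*, so reads of the 2 loci may be divided unevenly. The *aipp3-2* libraries also differed from *aipp3-1* in genes outside the MOM1 complex. The demethylase gene *ROS1* was at 0.395 CPM in *aipp3-2*, 63.1 in *aipp3-1* and 46.9 in Col-0, and the methyltransferase gene *DRM2* was at 6.40, 14.8 and 17.2 CPM. Their part in the level of *AT1G27565* was not tested.

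The libraries outside the rule were then used to ask whether the single mutant *morc6-3* changes the same genes. The comparison shares the Col-0 control with the rule, which chose genes that were low there. Of the 16 genes 8 were called higher in *morc6-3* (log2 fold change of 1 or more and adjusted p under 0.05, edgeR quasi-likelihood test) and 0 lower, beside 0.978% of 22082 genes called higher. All 16 had a fold change above 0, with a median log2 fold change of 2.62, or 2.41 with the genes at 0 in Col-0 set to their bounds, beside 0.00375 over all genes. These values are a description, since they rest on the low Col-0 values that the rule used. Against the Col-0 for nrpe1-11, which the rule did not use, 8 were also called, with 7 in common, beside 6.32% of all genes, and 15 of the 16 were above 0 (*AHP4* was at -0.07), with a median of 2.15 beside -0.01 over all genes. Against *phd1-2*, *phd1-4* and *mom2-2* pooled as 1 group, whose *PRR9* level was near that of *morc6-3* but which the rule also used, 7 of the 8 were called, all but *AT3G27250*, beside 0.249% of all genes.

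The 8 were 7 of the 8 pseudogenes and RNAs and 1 of the 8 protein-coding genes, *AT3G27250*. Unless stated, the values that follow are against the Col-0 control, in which the rule required low levels, and are a description. *AT5G38005* had a log2 fold change of 2.89 ± 0.26 (SE, adjusted p = 0.000444) and *AT1G25430* of 2.49 ± 0.29 (adjusted p = 0.00134). *SADHU3-2* had 2.25 ± 0.51 (adjusted p = 0.0227) and *AT1G26558* 2.07 ± 0.37 (adjusted p = 0.00778). For the genes nearly without reads in Col-0 the fold is only bounded by counting. *AT4G01980* was 90.5-fold higher (95% exact counting interval 24.6 to 754.3, adjusted p = 0.000284), *AT5G32621* 37.7-fold (6.3 to 1541.5, adjusted p = 0.00705) and *AT2G13431* at least 20.8-fold higher (adjusted p = 0.00610). These intervals do not cover reads shared with the copies of *AT4G01980* and *AT5G32621*. Against the unused Col-0 for nrpe1-11, edgeR gave log2 fold changes of 1.56 ± 0.19 for *AT5G38005* (adjusted p = 0.000701) and 2.13 ± 0.37 for *AT1G25430* (adjusted p = 0.00300). It gave 2.13 ± 0.27 for *SADHU3-2* (adjusted p = 0.000763) and 4.22 ± 0.39 for *AT1G26558* (adjusted p = 0.000187). *AT3G27250* was not called there (0.66 ± 0.59, adjusted p = 0.395).

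*AT3G27250* rose by 1.94 ± 0.52 on the log2 scale (adjusted p = 0.0442), but the call was lost in 5 of the 6 fits with 1 library left out, all but the one without *morc6-3* replicate 2. *HAI2* had 2.33 ± 0.77 (adjusted p = 0.0883), *HSFA6A* 3.62 ± 1.43 (adjusted p = 0.149) and *AT5G50360* 4.04 ± 1.59 (adjusted p = 0.147), each with the high replicate 3 described above. The 6 genes called when any 1 of the 6 libraries was left out were all pseudogenes or non-coding RNAs, and *SADHU3-2* lost the call without *morc6-3* replicate 2 or 3 or Col-0 replicate 1.

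**Figure D3:**
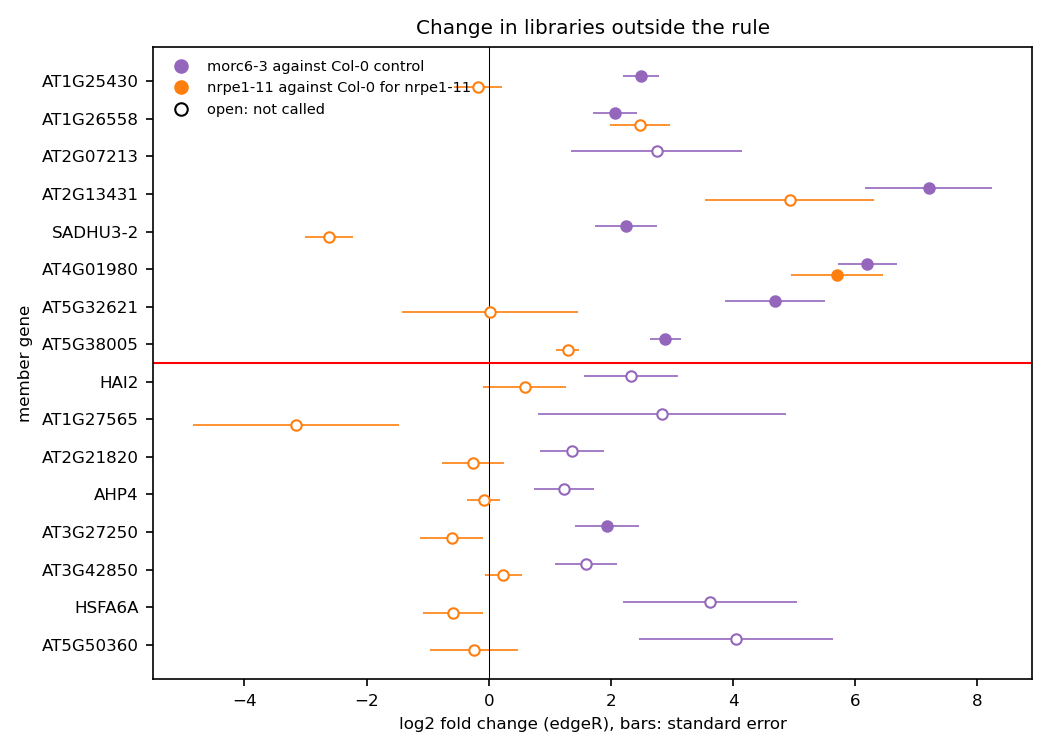
Fitted log2 fold change of each gene in *morc6-3* against Col-0 control and in *nrpe1-11* against its own Col-0, with the standard error, filled where called, and pseudogenes and non-coding RNAs above the red line. The purple points lie right of 0 for all 16 genes and are filled for 7 of 8 above the line and 1 of 8 below, and of the orange points only that of *AT4G01980* is filled.

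The *nrpe1-11* comparison, with its own Col-0, shares no library with the rule and asks whether loss of Pol V raises the same genes. Of the 16 genes 1, *AT4G01980*, was called higher, beside 0.226% of all genes, and 0 lower (4 higher and 1 lower at an unadjusted p under 0.05, 2 called higher by DESeq2). It had 70.5 expected counts in *nrpe1-11* and 1 in Col-0, a ratio of 73.0 (exact counting interval 12.7 to 2924.6, adjusted p = 0.0354), and it lost the call when any 1 library was left out. *AT5G38005* was at 5.46, 4.75 and 7.62 CPM in *nrpe1-11* and 2.46, 2.41 and 2.30 in its Col-0 (log2 fold change 1.29 ± 0.19, adjusted p = 0.0519 in edgeR and 2.37e-05 in DESeq2). *AT1G26558* was higher in all 3 libraries (2.47 ± 0.49, adjusted p = 0.183). *AT2G13431* was at 0.0362, 0.179 and 0.145 CPM in *nrpe1-11* and at 0 in its Col-0 (adjusted p = 0.922 in edgeR). The level of *AT5G38005* in this Col-0 was above that in the Col-0 control, and 10 clock genes summed to 1538 to 2074 CPM there and 639 to 700 CPM in the Col-0 control.

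*SADHU3-2* went the other way in *nrpe1-11*, with a log2 fold change of -2.62 ± 0.39 and every library below every Col-0 library, but an adjusted p of 0.0559. The change in *nrpe1-11* was lower than that in *morc6-3* by 4.85 ± 0.81 on the log2 scale (adjusted p = 0.0152, test of the difference, in which 2.52% of all genes passed). The change of *AT1G25430* also differed (-2.66 ± 0.54, adjusted p = 0.0285), as did that of *AT5G38005* (-1.61 ± 0.35, adjusted p = 0.0368). These 3 were the members that passed, and for *AT2G07213* and *AT2G13431* the difference could not be fitted. The *morc6-3* side of each difference uses the Col-0 control, in which the rule chose genes that were low. With the Col-0 for nrpe1-11 in its place the changes of *SADHU3-2*, *AT1G25430* and *AT5G38005* in *morc6-3* were 2.13, 2.13 and 1.56 on the log2 scale. In *nrpe1-11* against this same Col-0 they were -2.62, -0.18 and 1.29. For *AT5G38005* the changes in the 2 mutants were therefore close with this shared control, and apart only with the Col-0 control for *morc6-3*.

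Of the MOM1 complex single mutants, *aipp3-1* and *aipp3-2* had members called higher against the Col-0 control, in which the rule chose genes that were low. In *aipp3-1* there were 3 (*HAI2*, *AHP4* and *AT5G38005*), beside 1.73% of all genes, and in *aipp3-2* 4 (*HAI2*, *AT1G27565*, *AT3G42850* and *AT5G38005*), beside 2.88%. *AT5G38005* had a log2 fold change of 1.34 ± 0.30 (adjusted p = 0.0335) and 1.43 ± 0.28 (adjusted p = 0.0129) in the 2 alleles, at 1.79 to 3.21 CPM. Flower organ markers summed to 31.2 to 47.0 CPM in *aipp3-1* and 28.3 to 46.2 in *aipp3-2*, against 6.02 to 6.82 in Col-0, with *SEP3* at 26.5, 28.2 and 3.96 CPM. The abscisic acid list summed to 458 to 826 CPM in *aipp3-1*, 557 to 1309 in *aipp3-2* and 410 to 477 in Col-0. The part of either list in these calls was not tested. Against *phd1-2*, *phd1-4* and *mom2-2* pooled as 1 group 2 members were called in *aipp3-1* and 6 in *aipp3-2*, of which 1 and 3 were among those above, beside 1.26% and 2.65% of all genes. *AT5G38005* was called there in *aipp3-2* and not in *aipp3-1*. Against the other Col-0 there were also 7 calls in the 5 single mutants, of which 3 were among these. There were 1 in *aipp3-1* (*HAI2*) and 2 in *aipp3-2* (*HAI2* and *AT1G27565*), beside 7.78% and 8.87% of all genes, and 2, 1 and 1 in *mom2-1*, *pial1-2* and *pial2-1* (*AT1G26558* in each and *HAI2* in *mom2-1*), beside 8.32%, 8.45% and 8.37%. Against the Col-0 control with 1 library left out there were 1 to 8, with 1 (*AT1G27565* in *aipp3-2*) without Col-0 control replicate 3. In *mom2-1*, 0 were called against the Col-0 control (6 higher at an unadjusted p under 0.05, 0 by DESeq2), beside 0.00906% of all genes, and 0 with replicate numbers as a block. In *pial1-2* and *pial2-1*, 0 were called against it (0 at an unadjusted p under 0.05, 0 by DESeq2), beside 0.0362% and 0.0679% of all genes.

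MORC6-Myc peaks were then counted beside each member. A peak called in replicate 1 and overlapped in replicate 2 lay within 1 kb of 10 of the 16 genes (62.5%, 95% exact interval 35.4% to 84.8%, counting error only), against 15.1% of 32834 genes with a position. These were 8 of the 8 pseudogenes and RNAs, against 20.2% of the 6123 genes of any kind other than protein-coding. They were also 2 of the 8 protein-coding genes (*AT3G42850* and *AHP4*), against 13.9% of all protein-coding genes. The 8 pseudogenes and RNAs had a peak within 1 kb in each of the 5 lines that carry MORC6-Myc in the Col-0 or *morc6* background, as did 27.5% of all genes other than protein-coding. The count depended on the list. At a -log10 q of at least 5 there were 7 of the 16, and *AT2G13431* and *AT5G38005* were then among those without a peak. In line 2 of the Col-0 and of the *morc6* background 14 of the 16 had a peak, beside 40.2% and 40.4% of all genes, and 6 of the 8 protein-coding members were among them. Peaks were from flower buds and the RNA from seedlings, and the lists give no read depth.

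The strongest peaks by -log10 q in replicate 1 were beside *AT1G25430* (104, 10.2-fold enrichment, summit at -105 bp from the annotated start), *AT4G01980* (103, 9.23-fold, past the 3′ end, 1250 bp after the start) and *SADHU3-2* (71.9, 8.21-fold, -353 bp). The windows printed above surround these summits. *AT1G26558* had its summit 110 bp after the start (33.4, 5.56-fold) and *AT5G38005* at -98 bp (9.10, 2.88-fold). *AT2G13431* (25.0) and *AT5G32621* (55.5) had theirs past the 3′ end, and *AT2G07213* (60.5) at -671 bp. In replicate 1 the -log10 q of *AT5G38005* was the lowest of the 8, although its RNA level was among the highest. In replicate 2 that of *AT2G13431* was lower (3.65 against 3.99).

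Of the 6 genes high in replicate 3, 1 (*AHP4*) had a peak in both replicates. It had a -log10 q of 6.90 in replicate 1, with the summit beyond its 3′ end, and *AT3G27250* (10.4) and *HSFA6A* (4.16) had a peak in replicate 1 that replicate 2 did not have. *HAI2* had none in either replicate, and *AT5G50360* and *AT2G21820* had none in any of the 10 MORC6-Myc lists. A peak at a threshold is not a measure of absence below it.

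**Figure D4:**
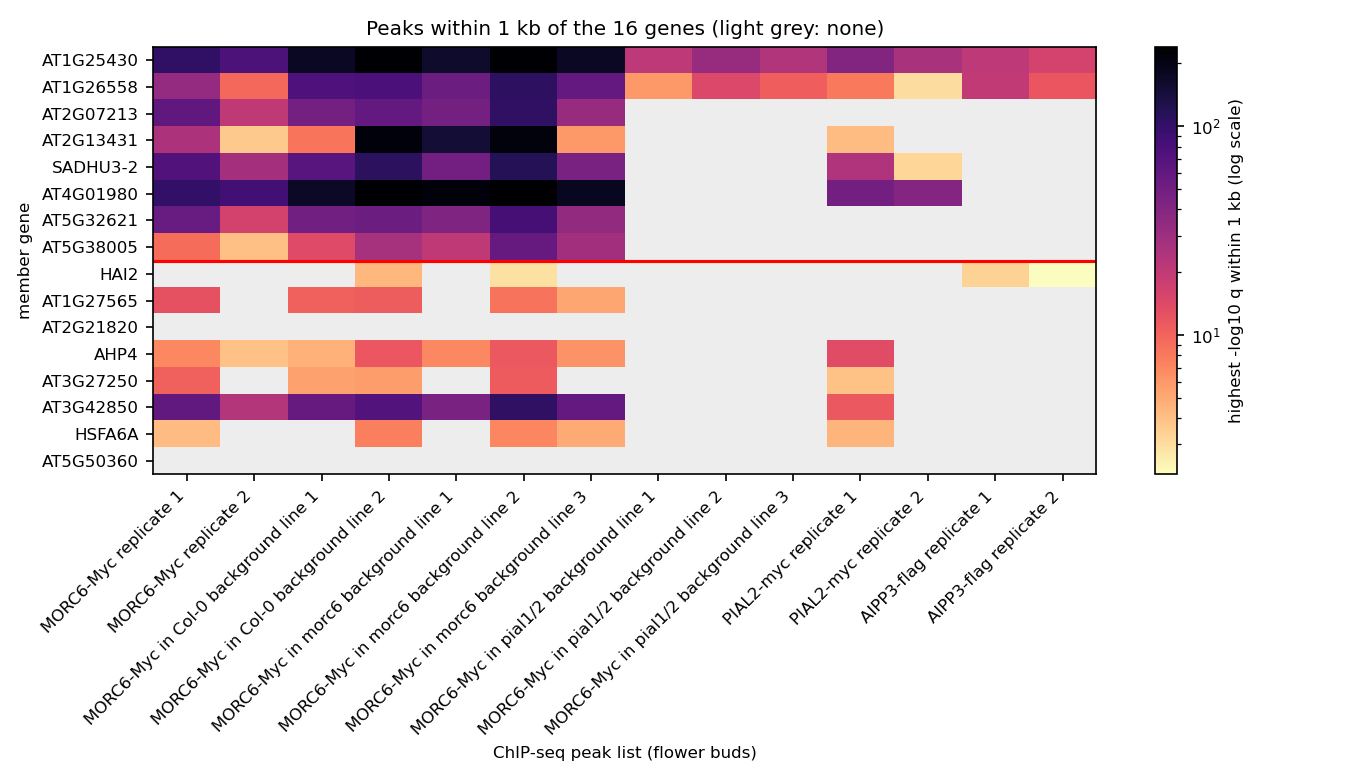
Highest -log10 q (log colour scale) of the peaks within 1 kb of each gene in 14 peak lists from flower buds, with pseudogenes and non-coding RNAs above the red line. Each of the 8 upper rows is filled in all 7 MORC6-Myc lists of wild-type or *morc6* background, and only *AT1G25430* and *AT1G26558* are filled in the 3 lists of *pial1/2* background.

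In the *pial1/2* background, MORC6-Myc peaks were within 1 kb of 2 of the 16 genes in each of 3 lines, *AT1G25430* and *AT1G26558*, against 3.69% to 4.495% of all genes, and these lists held 1151 to 1348 peaks where the lists of the Col-0 and *morc6* backgrounds held 8006 to 13430. Of the 10 members with a peak in all 5 of those lines, 20.0% kept one in all 3 *pial1/2* lines, beside 10.5% of all such genes. PIAL2-Myc peaks found in both replicates were within 1 kb of 4 members (*AT1G25430*, *AT1G26558*, *SADHU3-2* and *AT4G01980*, 25.0% against 6.79% of all genes). AIPP3-FLAG peaks were within 1 kb of 3 (*HAI2*, *AT1G25430* and *AT1G26558*, 18.8% against 10.9%). PHD3 peaks, from a FLAG and a Myc line, were within 1 kb of 1, and reproducible PHD1-FLAG peaks, of which there were 14, of 0.

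The members were spread over the 5 chromosomes, with 0 pairs next to each other. Pseudogenes outnumbered protein-coding genes within 250 kb of 4 of the 8 pseudogenes and RNAs (*AT2G07213*, *AT2G13431*, *SADHU3-2* and *AT5G32621*), against 45.5% of all genes other than protein-coding, and of 1 of the 8 protein-coding members (*AT3G42850*), against 2.54% of all protein-coding genes. Of the 32 nearest genes on either side, 20 were expressed enough to be tested in *morchex*, and 0 were called higher or lower by edgeR (7 higher and 0 lower at an unadjusted p under 0.05, 0 called by DESeq2), beside 1.39% and 2.21% of all genes.

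The silencing genes themselves were used to check the labels. In *morchex*, *MORC1*, *MORC2*, *MORC6* and *MORC7* were called lower, and *MORC4* was called higher, at 29.8 ± 2.82 CPM against 14.1 ± 0.428 in Col-0 (SD, n = 3), although it carries an insertion. *MORC6* was at 2.17, 3.62 and 3.13 CPM in *morchex*, 5.09, 5.19 and 4.30 in *morc6-3* and 13.3, 10.5 and 11.4 in Col-0. *MORC5* was under 1.1 CPM in every library of these groups. Of 22 genes of the DNA methylation and siRNA pathway and 5 of the MOM1 complex, 0 were called by edgeR in *morchex* (1 higher and 3 lower at an unadjusted p under 0.05, 0 by DESeq2). Of 10 clock genes, *CCA1* and *PRR9* were called higher against the Col-0 control (3 higher and 4 lower at an unadjusted p under 0.05, 2 called by DESeq2). *CCA1* was at 42.4 CPM in *morchex* and at 39.55 to 46.1 in *phd1-2*, *phd1-4* and *mom2-2*, and *PRR9* at 32.9 and at 33.1 to 34.4. Of 8 defence genes, 0 were called (1 higher and 2 lower at an unadjusted p under 0.05, 0 by DESeq2). Of 2 genes that respond to DNA methylation, 1 was expressed enough to be tested and was not called (0 at an unadjusted p under 0.05, 0 by DESeq2). Library totals were 1.32e+07 to 3.35e+07 expected counts, with *morchex* at 1.52e+07 to 1.95e+07 and the Col-0 control at 2.08e+07 to 2.54e+07, so 1 count was worth less than 0.1 CPM in each.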

How the data were processed

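RNA-seq reads were aligned by the authors to TAIR10 with bowtie2, and the deposited expected counts and TPM per gene came from RSEM with default settings. For ChIP-seq, the authors called peaks with MACS2, and the deposited lists give a fold enrichment and a −log10 q for each peak. Bisulfite amplicons were not used here.

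CPM is the expected count per 1000000 counts of the library. Counts were rounded and tested with edgeR 4.0.16 in R 4.3.3 (quasi-likelihood, TMM, 6 libraries per comparison, Benjamini-Hochberg adjustment over 22792 features with a CPM of 0.3 in at least 3 libraries), and with DESeq2 1.42.0 as an alternative. All 16 genes passed this filter. Of peaks that repeat an interval, the one with the highest −log10 q was kept, and reproducible peaks overlap by at least 1 bp. Sequences and positions came from RefSeq TAIR10.1, which keeps the chromosome sequences of TAIR10, and copies were searched with BLAST 2.17.0. In data simulated for the *morc6-3* comparison (22792 features), edgeR called 83 of 100 features changed by 1.5 and 95 of 100 changed by 3 on the log2 scale, with 14 false calls. The changed features were drawn from those above a minimum mean count, so these rates may not hold for the members with the fewest counts. Residuals of same-numbered libraries correlated above 0.1 in every pair for *mom2-1* (0.268 to 0.428) and *pial2-1* (0.123 to 0.334), and not in the other comparisons.

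The members and the gene lists were chosen with earlier results of these data known. The lists of abscisic acid response, heat shock and *AHP* genes were added after the members' values were seen. Named were the members with the highest TPM, the largest ratios, a call or a strong peak, and those next to a limit, which took in all 16. Alternatives changed the scaling, filter, tool, control group, replicate block, peak threshold and window, and left out each library.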

Additional observations from a re-analysis of the deposited data

Results flagged for a closer look

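The change in *nrpe1-11* differed from that in *morc6-3*, each against its own Col-0, by a test of the difference for 3 members. The value was -4.85 on the log2 scale for *SADHU3-2*, -2.66 for *AT1G25430* and -1.61 for *AT5G38005*, with the libraries of *SADHU3-2* all below Col-0 in *nrpe1-11* and all above it in *morc6-3*. The *morc6-3* side uses the Col-0 control, in which the rule chose genes that were low. Against the Col-0 for nrpe1-11, *AT5G38005* changed by 1.56 ± 0.19 in *morc6-3* and by 1.29 ± 0.19 in *nrpe1-11*, which are close. *AT1G27565* differed between the 2 *aipp3* alleles, with a fitted log2 fold change of 9.35 in *aipp3-2* against *aipp3-1*, where it had 0 counts.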

How the results depend on the processing

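The rule found 16 genes, and 11 to 16 under other scalings, minimums and folds. Without 1 *morchex* replicate it found 13 to 44 genes: 38 without replicate 1, 44 without replicate 2 and 13 without replicate 3, of which 16, 15 and 10 were among the 16. In *morc6-3* 8 members were called, 6 to 9 under 15 alternatives (6 to 8 with 1 library left out, 9 with the replicate block). In *nrpe1-11* 1 member was called, 2 with DESeq2 and without a filter, 3 in one fit over 42 libraries, 0 with a CPM of at least 1, 0 with the replicate block and 0 to 0 with 1 library left out. In the 5 single mutants 7 calls became 1 to 8 with 1 library left out, 1 without Col-0 control replicate 3, 3 without replicate 2 of the mutant, and 6 with the replicate block. With *phd1-2*, *phd1-4* and *mom2-2* as control (chosen after the data were seen) 3 calls became 2 in *aipp3-1* and 4 became 6 in *aipp3-2*. The call of *AT1G27565* in *aipp3-2* was in all 14 alternatives, whose control group included the other Col-0 (chosen after the data were seen). The share of members with a MORC6-Myc peak was 62.5%, 43.8% at a −log10 q of at least 5, 81.2% without replicate 2, 87.5% in line 2 of both the Col-0 and *morc6* backgrounds and 12.5% in each *pial1/2* line.

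Members at under 1 CPM rest on few reads, with *AT2G07213* at 32.6 and *AT3G42850* at 35.0 expected counts over 3 *morchex* libraries. The cause of the differences between replicates was not tested.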
